A study of Rattus norvegicus with 6 samples.

Results

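The 7 genes described here are the serum- and glucocorticoid-regulated kinases Sgk1, Sgk2 and Sgk3 and the N-myc downstream-regulated genes Ndrg1, Ndrg2, Ndrg3 and Ndrg4, chosen by symbol from the 17327 genes counted in each library. Of these 7 members, 6 had a row in the files and 5 passed the filter on low counts, and each member was compared between mock and NRG1 libraries of the same culture. The cells were primary Schwann cells, the glia of peripheral nerve, taken from sciatic nerves of adult Wistar rats. All 6 libraries came from confluent cells starved for 18 h at 2% FBS. Forskolin at 10 μM, which increases cAMP, was kept in the medium throughout to bring back a differentiated state in these axon-free cultures. In the NRG1 group the same medium then held 10 nM soluble recombinant NRG1β1 (NRG1) for 6 h, while mock cells received the ligand buffer alone. Each of 3 independent cultures, numbered 1, 2 and 3, gave 1 mock and 1 NRG1 library, so that n = 3 per group. Before starvation every culture had been grown with forskolin and a neuregulin (the labels name glial growth factor and the methods NRG1β1 itself), so the mock cells were deprived of the ligand rather than never exposed to it.

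SGK kinases are serine/threonine kinases of the AGC family, close relatives of AKT. They are activated downstream of PI3K, through phosphorylation by mTORC2 and PDK1, and transcription of SGK1 is known to respond quickly to serum and glucocorticoids. NDRG1 and NDRG2 are among the best known SGK1 substrates, and phosphorylated NDRG1 is widely used as a readout of SGK1 activity. The NDRG proteins share an alpha/beta hydrolase fold without known enzymatic activity, and their name comes from the repression of NDRG1 by MYCN. NDRG1 is also known as a hypoxia-responsive gene and is needed for the maintenance of peripheral myelin, since its loss causes the demyelinating neuropathy Charcot-Marie-Tooth disease type 4D. The measurements here are of mRNA only and say nothing of phosphorylation.

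Sequences of the promoters are given for Sgk1, the only SGK member with counts, and for Ndrg2, the member whose level differed most between cultures. The RefSeq promoter table, on the GRCr8 assembly, holds windows for 4 of the 7 members, and Ndrg1, Sgk2 and Sgk3 have none in it. Each window holds 300 bases around an annotated start, written 5′ to 3′ and mostly upstream of it, and capitals mark the TATA box motif TATAAA on the strand of the gene.
Sgk1 window 1, chr1:24807182-24807481, strand -: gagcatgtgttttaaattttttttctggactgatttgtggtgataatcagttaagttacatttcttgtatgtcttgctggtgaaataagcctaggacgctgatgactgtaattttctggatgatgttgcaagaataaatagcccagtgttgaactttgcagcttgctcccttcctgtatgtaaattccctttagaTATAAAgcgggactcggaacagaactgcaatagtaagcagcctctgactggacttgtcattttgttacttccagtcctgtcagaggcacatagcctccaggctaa
Sgk1 window 2, chr1:24805521-24805820, strand -: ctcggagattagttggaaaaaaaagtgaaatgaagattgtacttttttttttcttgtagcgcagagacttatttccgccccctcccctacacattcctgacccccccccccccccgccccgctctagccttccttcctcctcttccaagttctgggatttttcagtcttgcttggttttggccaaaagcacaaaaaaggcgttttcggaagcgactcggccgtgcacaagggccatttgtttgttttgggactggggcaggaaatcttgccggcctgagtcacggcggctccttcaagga
Sgk1 window 3, chr1:24804782-24805081, strand -: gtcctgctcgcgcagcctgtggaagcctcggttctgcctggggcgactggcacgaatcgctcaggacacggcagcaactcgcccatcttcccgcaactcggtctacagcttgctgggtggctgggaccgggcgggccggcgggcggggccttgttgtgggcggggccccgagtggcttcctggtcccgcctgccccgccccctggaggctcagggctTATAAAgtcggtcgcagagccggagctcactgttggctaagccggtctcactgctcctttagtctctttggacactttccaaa
Ndrg2 window 1, chr15:27083071-27083370, strand -: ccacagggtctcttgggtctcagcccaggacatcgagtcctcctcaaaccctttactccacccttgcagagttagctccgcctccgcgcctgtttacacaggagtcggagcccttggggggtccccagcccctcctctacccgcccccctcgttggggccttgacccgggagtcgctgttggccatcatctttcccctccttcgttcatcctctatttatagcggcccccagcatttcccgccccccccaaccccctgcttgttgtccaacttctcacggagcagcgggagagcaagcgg
Ndrg2 window 2, chr15:27082453-27082752, strand -: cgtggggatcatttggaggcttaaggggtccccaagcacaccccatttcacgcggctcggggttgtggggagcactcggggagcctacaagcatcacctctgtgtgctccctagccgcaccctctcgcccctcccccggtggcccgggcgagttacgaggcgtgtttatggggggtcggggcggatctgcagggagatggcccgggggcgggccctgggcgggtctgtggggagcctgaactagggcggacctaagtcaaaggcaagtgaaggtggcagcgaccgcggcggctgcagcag
The motif TATAAA was found in 2 of the 3 Sgk1 windows, beginning 55 bases before the annotated start in window 1 and 33 bases before it in window 3, and in 8.8% of all 33469 windows of the table. Neither Ndrg2 window held it. The letters CACGTG (an E-box, bound by MYC and MAX), ACGTG (the core of a hypoxia response element, which lies within the E-box letters), TGACG (the core of a cAMP response element) and AGAACA (a hexamer of the glucocorticoid response element) were searched on both strands. None of the 4 was present in the windows of Sgk1 and Ndrg2, while 6.42%, 19.3%, 21.2% and 20.7% of all windows held them. Among the windows not printed, that of Ndrg3 held none of the 5 motifs, window 2 of Ndrg4 held TGACG at 2 places and AGAACA at 1, and window 3 of Ndrg4 held TATAAA. Such a match, or its absence, describes these 300 bases only. The counts are summed per gene, so the starts cannot be told apart in the values that follow.

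The libraries held between 6821590 and 15475018 counts on genes, and a level of 3 counts, taken as the lowest that could be read, was between 0.194 and 0.440 CPM (counts scaled to a library total of 1000000 counts on genes). The libraries of culture 1 stood apart from the other 4. The fibroblast markers Dcn and Thy1 were at 594.3 and 1233 CPM in mock 1 and at 413.0 and 1106 CPM in NRG1 1, but had no count in any library of cultures 2 and 3, which allows at most 0.440 CPM in the smallest of these. Pdgfra was at 846.1 and 800.1 CPM in culture 1 and at 1.62 CPM or less elsewhere. The summed level of the 7 fibroblast markers ranged from 14332 to 51950 CPM in mock and from 13773 to 55825 CPM in NRG1 libraries, with the highest value of each group in culture 1 and Col1a1 as the most abundant marker. Col1a2, the partner chain of Col1a1, was in contrast at 0 in 5 of the 6 libraries. The summed level of the 7 Schwann cell markers was conversely lowest there, at 5985 CPM in mock 1 and 4658 CPM in NRG1 1 against 12655 CPM or more in the other 4 libraries. Of the Schwann cell markers, 3 fell with NRG1 and the other 4 did not pass, and none of the 3 fibroblast markers that could be tested passed, with 1 at an unadjusted p under 0.05 and none in DESeq2. That marker, the collagen gene Col3a1, named after its values were seen, had log2 ratios of 0.05, -1.59 and -1.38 in cultures 1, 2 and 3 and a log2 fold change of -0.98 (adjusted p = 0.0118). Col3a1 passed with RLE scaling (adjusted p = 0.00976), with at least 10 counts in every sample (0.00967) and with no low-count filter (1.84e-06). In cultures 2 and 3 alone, where its level was far lower than in culture 1, it fell by 1.48 on the log2 scale (adjusted p = 3.16e-13). Its part in the results for the members was not tested. Macrophage markers summed to 10.0 CPM or less and endothelial markers to 15.1 CPM or less in every library, with Ptprc, Pecam1 and Cdh5 at 0. In RNA of whole cultures, fewer cells of a type and less RNA per cell cannot be told apart. The results below are therefore given for all 3 cultures and, where the value or call differs, for cultures 2 and 3 alone. A fit of 2 cultures leaves little spread of a gene's own to estimate, and its p-values rest largely on the spread shared over genes. The smallest adjusted p of edgeR's quasi-likelihood test was 5.80e-48 in cultures 2 and 3 alone and 6.15e-08 in all 3. Small p-values from 2 cultures are thus not stronger evidence than those from 3.

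**Figure D1:**
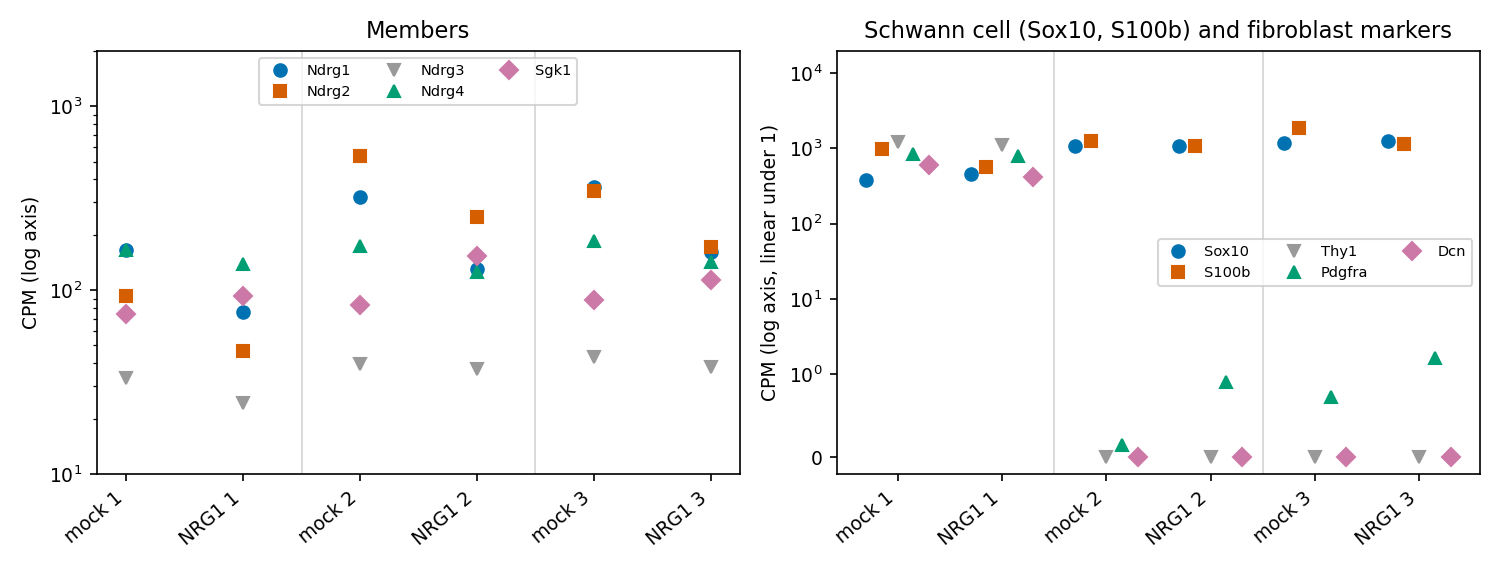
Levels in CPM of the 5 tested members (left) and of Schwann cell and fibroblast markers (right) in each library, on log axes, with the right axis linear under 1 CPM so that 0 can be drawn. Thy1, Pdgfra and Dcn lie at 413 CPM or more in both libraries of culture 1 and at 1.62 CPM or less in the other 4, with the points of a library set side by side in the right panel. Ndrg2 is lowest in culture 1 in both groups.

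Sgk1 had more counts with NRG1 than without it in each of the 3 cultures, by a moderate margin. Its level was 74.6, 83.0 and 88.6 CPM in mock libraries 1, 2 and 3 and 92.5, 152.6 and 113.5 CPM in NRG1 libraries 1, 2 and 3, from at least 566 counts each. The groups did not overlap, as was the case for 19.2% of all genes tested, and culture 2 stood out with the highest NRG1 value. Mock libraries averaged 82.1 ± 7.08 CPM and NRG1 libraries 119.5 ± 30.5 CPM (SD, n = 3 each). The fitted log2 fold change was 0.52 (SE 0.13, 95% interval 0.24 to 0.80), that is 1.43-fold, with an adjusted p of 0.0108, just over the threshold of 0.01. The log2 ratios within cultures 1, 2 and 3 were 0.32, 0.86 and 0.38. Sgk1 passed in cultures 2 and 3 alone (log2 fold change 0.62, adjusted p = 0.00536), but without culture 2 its log2 fold change was 0.35 with an adjusted p of 0.0435 and without culture 3 it was 0.61 with one of 0.0202. A scaling per count of Sox10, a Schwann lineage transcription factor, within each library was added after the markers had been seen. On that scale the log2 change of Sgk1 was 0.05, 0.90 and 0.28 in cultures 1, 2 and 3. Sox10 itself had log2 ratios of 0.27, -0.04 and 0.10 in these cultures. In culture 1 its ratio was nearly that of Sgk1, so that little difference was left there.

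The other SGK kinases gave no comparison. Sgk2, which is known mainly from liver, kidney and pancreas, had 0 counts in all 6 libraries, which allows a level of at most 0.194 CPM in the largest of them. Sgk3, the form that carries a PX domain and sits on endosomes, had no row under its symbol or its synonyms Cisk and Sgkl and was not analysed here, so that a ratio of Sgk1 to Sgk3 was not computed.

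Ndrg1 fell with NRG1, and by a similar factor in every culture. It was at 164.7, 322.2 and 365.0 CPM in mock libraries 1, 2 and 3 and at 76.1, 130.5 and 161.0 CPM in NRG1 libraries 1, 2 and 3. All NRG1 values lay under all mock values, although culture 1 was the lowest of both groups and its mock value was close to the highest NRG1 value. The log2 fold change was -1.20 (SE 0.12, 95% interval -1.45 to -0.94, adjusted p = 1.69e-05), which is a 2.29-fold lower level and the 43rd smallest p-value of the 9740 genes tested. Within cultures 1, 2 and 3 the log2 ratios were -1.11, -1.33 and -1.15.

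Ndrg2 fell by nearly the same factor from very different starting levels. This NDRG member, abundant in astrocytes and other glia, was at 93.0, 534.2 and 345.3 CPM in mock libraries 1, 2 and 3 and at 46.5, 248.4 and 171.2 CPM in NRG1 libraries 1, 2 and 3. The groups overlapped, because mock 1 was lower than the NRG1 libraries of cultures 2 and 3, whereas within each culture the NRG1 value was about the same fraction of the mock value. The log2 fold change was -1.04 (SE 0.12, 95% interval -1.29 to -0.78, adjusted p = 4.63e-05), and the log2 ratios of cultures 1, 2 and 3 were -0.99, -1.13 and -0.99. The highest mock level of Ndrg2 was 5.74 times the lowest, a spread larger than that of 95.9% of the genes tested, while the SD of its 3 log2 ratios was 0.08 and only 9.70% of the genes had a smaller one. For Ndrg1 the corresponding mock spread was 2.22 times and the SD 0.12. The median gene had a mock spread of 1.44 times and an SD of 0.22.

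Ndrg3 and Ndrg4 did not pass the test. Ndrg4, best known from brain and heart, was at 165.0, 173.9 and 185.5 CPM in mock libraries 1, 2 and 3 and at 138.5, 125.1 and 142.6 CPM in NRG1 libraries 1, 2 and 3. The groups did not overlap, and the level hardly varied between cultures, with a mock spread of 1.12 times. Its log2 fold change was -0.36 (SE 0.12, 95% interval -0.62 to -0.11, adjusted p = 0.0373). Ndrg3, a family member known to be regulated through oxygen-dependent degradation of its protein, was at 33.4, 39.7 and 43.1 CPM in mock libraries 1, 2 and 3 and at 24.4, 37.2 and 38.3 CPM in NRG1 libraries 1, 2 and 3. Its groups overlapped and its log2 fold change was -0.23 (SE 0.13, 95% interval -0.51 to 0.06, adjusted p = 0.238). The current rat annotation lists near copies named Ndrg3-ps1 and Sgk1-ps1. The files hold reads without a unique alignment apart from the genes, so the levels of Ndrg3 and Sgk1 are uncertain to that extent.

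**Figure D2:**
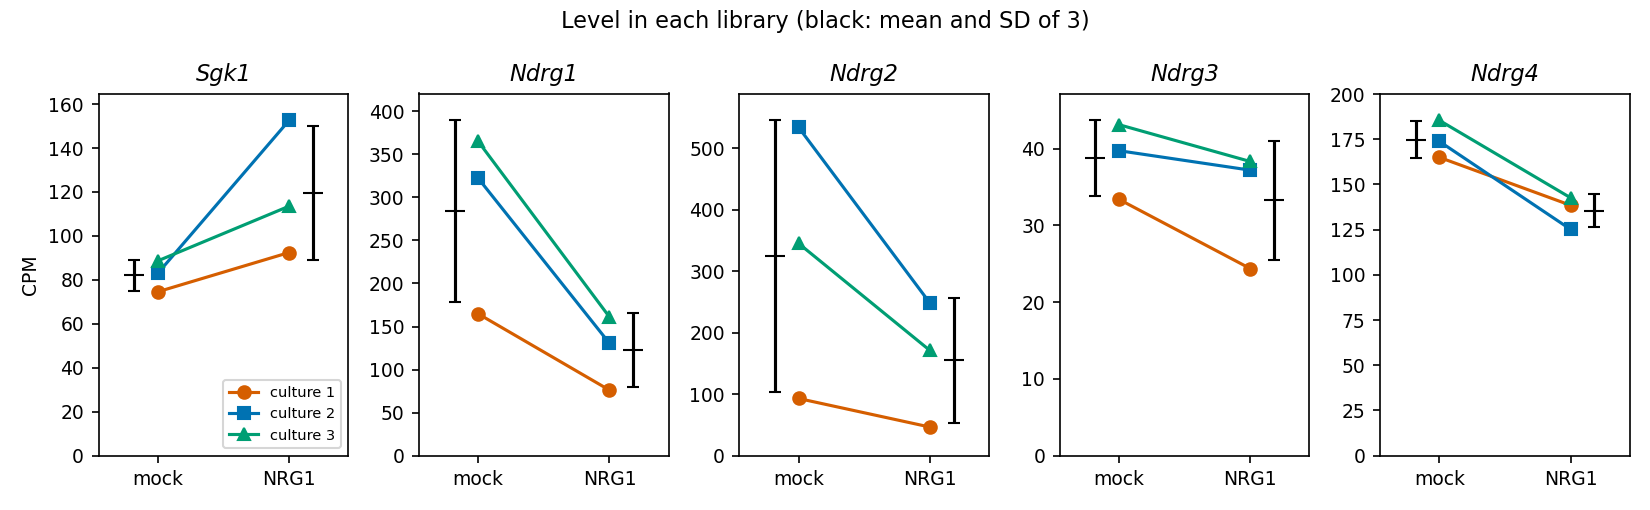
Level in CPM of the 5 tested members in each library, with a line joining the mock and NRG1 libraries of a culture and black bars for the mean and SD of 3 libraries, each panel with its own axis from 0. Ndrg1 and Ndrg2 fall along nearly parallel relative steps in all 3 cultures, and Sgk1 is higher with NRG1 in each culture, most in culture 2.

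Of the 5 members tested, 2 thus passed the adjusted p threshold of 0.01, both lower in NRG1 and both past a log2 fold change of -1, and none passed higher in NRG1. By edgeR's quasi-likelihood test 4 of the 5 had an unadjusted p under 0.05, as did 35.7% of all genes tested, a share against which the unadjusted counts of the lists below can also be read. In DESeq2 3 members passed, namely Ndrg1, Ndrg2 and Sgk1, against 9.66% of the 9876 genes with an adjusted p there. Among all 9740 genes tested, 5.51% passed as lower and 6.31% as higher in NRG1, and 1.91% were lower and 1.56% higher past both thresholds. The log2 fold change of Ndrg2 lay close to the second threshold, at -0.98 in DESeq2 with shrunken fold changes and at -0.99 without culture 2. In cultures 2 and 3 alone, Ndrg1 and Ndrg2 passed with log2 fold changes of -1.24 and -1.05. Scaled per Sox10 count, the mean log2 changes over the 3 cultures were -1.31 ± 0.06 for Ndrg1 and -1.14 ± 0.10 for Ndrg2 (SD, n = 3). On the same scale Ndrg4 changed by -0.47 ± 0.03 and Ndrg3 by -0.35 ± 0.33 (SD, n = 3). Sox10 itself had a log2 fold change of 0.11 (adjusted p = 0.579). The highest mock value per Sox10 count was 2.04 times the lowest for Ndrg2 and 1.44 times for Ndrg1, less than in CPM. For Sgk1, Ndrg3 and Ndrg4 it was 2.62, 2.41 and 2.77 times the lowest, more than in CPM, with the highest value in mock 1. Whether the fibroblast markers of culture 1 have a part in the spread between cultures was not tested.

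**Figure D3:**
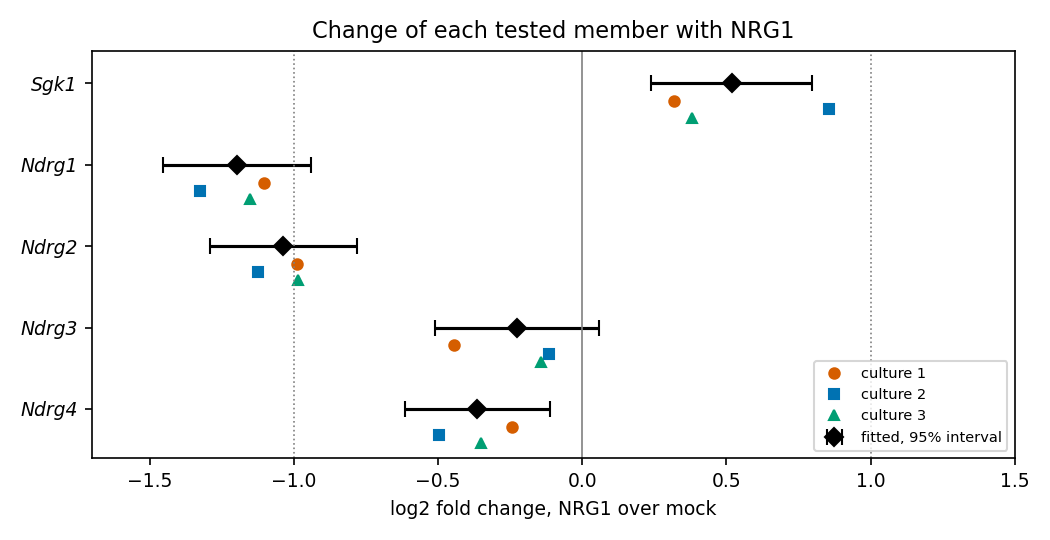
Fitted log2 fold change of NRG1 over mock with its 95% interval (black) and the log2 ratio of each culture (coloured points) for the 5 tested members. Dotted lines mark log2 fold changes of -1 and 1. Ndrg1 at -1.20 and Ndrg2 at -1.04 lie near the lower line, and Sgk1 at 0.52 lies on the other side of 0.

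Ratios between members within a library do not depend on how libraries are scaled, and they were used to compare the changes directly. The counts of Ndrg1 per count of Ndrg4 were 0.998, 1.85 and 1.97 in mock libraries 1, 2 and 3 and 0.549, 1.04 and 1.13 in NRG1 libraries 1, 2 and 3. The log2 change of this ratio was -0.83 ± 0.03 (SD, n = 3), nearly equal in the 3 cultures. For Ndrg1 to Ndrg3 it was -0.96 ± 0.28 (SD, n = 3), with -0.66 in culture 1 and -1.21 and -1.01 in cultures 2 and 3. For Ndrg1 to Ndrg2 it was only -0.16 ± 0.04 (SD, n = 3), lower in all 3 cultures. The ratio of Sgk1, the kinase, to Ndrg1, its substrate, added after the data had been seen, was 0.453, 0.258 and 0.243 in mock and 1.22, 1.17 and 0.705 in NRG1 libraries 1, 2 and 3. It was higher with NRG1 by 1.72 ± 0.41 on the log2 scale (SD, n = 3), with no overlap between the groups. Each of the 4 ratios moved the same way in the 3 cultures, and the two-sided exact paired permutation test gave p = 0.25 for each, the smallest value that 3 pairs allow. The ratios compare counts and not molecules, since gene lengths were not used here.

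Of 15 genes of the route that activates SGK, 12 were tested and none passed by edgeR's quasi-likelihood test or by DESeq2, while 2 had an unadjusted p under 0.05. The log2 fold changes of the 12 ran from -0.38 to 0.68 around a median of -0.05, against -0.03 over all genes tested. Among those with the highest levels, Pik3r2, a regulatory subunit of PI3K, had a log2 fold change of 0.15 (adjusted p = 0.397) and Mtor, the kinase of both mTOR complexes, of 0.22 (adjusted p = 0.22). Prr5, an mTORC2 subunit named here after its values were seen, averaged 10.3 ± 2.11 CPM without and 16.7 ± 4.83 CPM with NRG1 (SD, n = 3 each), a log2 fold change of 0.68 (adjusted p = 0.0102). Prr5 passed, as the 1 gene of this list, with RLE scaling (adjusted p = 0.00876), with no low-count filter (0.00347) and with at least 10 counts in every sample (0.00881). Rictor, the defining subunit of mTORC2, had no row and was not analysed here.

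Among 10 related AGC kinases 1 passed. Rps6ka1, which encodes the ribosomal S6 kinase RSK1 of the ERK pathway, rose with a log2 fold change of 0.51 (SE 0.12, adjusted p = 0.00835). It averaged 140.1 ± 59.2 CPM without and 197.7 ± 80.7 CPM with NRG1 (SD, n = 3 each), and it did not pass when culture 1, 2 or 3 was left out (adjusted p = 0.0363, 0.0248 and 0.0125). Akt1, the nearest well-known relative of Sgk1, had a log2 fold change of 0.40 (adjusted p = 0.0225), similar in size to that of Sgk1, while Akt2 had 0.13 (adjusted p = 0.459) and Rps6ka2 -0.27 (adjusted p = 0.145). The median of the 10 was 0.07.

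None of the 11 SGK substrates and effectors outside the NDRG family passed by edgeR's quasi-likelihood test or by DESeq2, and 3 had an unadjusted p under 0.05. The smallest log2 fold change was -0.35 and the largest 0.33, around a median of 0.13. The ubiquitin ligase gene Nedd4 had a log2 fold change of -0.06 (adjusted p = 0.78), the kinase Wnk1 0.13 (adjusted p = 0.496) and the cell cycle inhibitor Cdkn1b -0.32 (adjusted p = 0.0725). For Nedd4l, the best studied SGK1 target in ion transport, it was 0.33 (adjusted p = 0.0667), and for the transcription factor Foxo3 it was -0.35 (adjusted p = 0.152), both named after their values were seen. Ndrg1 and Ndrg2 thus had larger changes than any of these 11 genes, in a description that carries no test of the difference.

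Sgk1 is a classical glucocorticoid target, and 10 genes of that response were examined beside it. Of 9 tested, 1 rose and 1 fell, but 7 had an unadjusted p under 0.05 and 6 of these were lower in NRG1. Fkbp5, a chaperone of the glucocorticoid receptor, rose in level from 43.5 ± 17.0 to 69.8 ± 25.7 CPM (SD, n = 3 each), a log2 fold change of 0.70 (SE 0.12, adjusted p = 0.00113). The clock gene Per1 fell with a log2 fold change of -0.78 (SE 0.17, adjusted p = 0.00531), unevenly, since its log2 ratios were -0.30, -1.40 and -0.64 in cultures 1, 2 and 3, and it did not pass without culture 2 (adjusted p = 0.0174). The phosphatase gene Dusp1 had a log2 fold change of -0.03 (adjusted p = 0.899), the receptor gene Nr3c1 -0.38 (adjusted p = 0.0381) and Tsc22d3, which encodes the glucocorticoid-induced leucine zipper protein, -0.56 (adjusted p = 0.0101). Tsc22d3 passed with RLE scaling (adjusted p = 0.00956), with no low-count filter (0.00113), with at least 10 counts in every sample (0.00835) and without culture 2 (-0.69, adjusted p = 0.0018). The transcription factors Klf9 and Cebpd, named after their values were seen, had log2 fold changes of -0.74 (adjusted p = 0.0242) and -0.62 (adjusted p = 0.0809). In cultures 2 and 3 alone both passed, at -1.23 (adjusted p = 1.59e-06) and -1.18 (adjusted p = 2.43e-06), so that 3 genes of the list were lower and 1 higher there. With no low-count filter 4 were lower. The median of the list was -0.38, and the log2 fold change of Sgk1 was 0.52. A part of the glucocorticoid response in the change of Sgk1 was not tested.

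NDRG1 mRNA is known to rise in hypoxia, and 13 hypoxia-responsive genes were examined beside Ndrg1. Of 11 tested, 2 rose and none fell by edgeR's quasi-likelihood test, with 5 at an unadjusted p under 0.05 and the same 2 genes passed in DESeq2. Ldha, which encodes lactate dehydrogenase A, rose in level from 450.0 ± 173.5 to 880.3 ± 372.0 CPM (SD, n = 3 each), a log2 fold change of 0.97 (SE 0.13, adjusted p = 0.000119). Slc2a1, the glucose transporter GLUT1, rose with a log2 fold change of 0.59 (SE 0.13, adjusted p = 0.00452), but it did not pass in cultures 2 and 3 alone (adjusted p = 0.0512) or without culture 3 (adjusted p = 0.0242). Hif1a and Epas1, the oxygen-regulated transcription factors, had log2 fold changes of -0.10 (adjusted p = 0.631) and 0.14 (adjusted p = 0.444). P4ha1, a collagen prolyl hydroxylase subunit, and the growth factor gene Vegfa each had 0.27 (adjusted p = 0.116 and 0.143). The median of the list was 0.27, and the log2 fold change of Ndrg1 was -1.20. A part of the hypoxia response in the change of Ndrg1 was not tested.

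The MYC network, from which the NDRG genes take their name, moved in both directions. Of 8 factors, 2 rose and 2 fell. Mycn rose in level from 8.71 ± 5.74 to 16.6 ± 8.95 CPM (SD, n = 3 each), a log2 fold change of 0.98 (SE 0.19, adjusted p = 0.00234). Myc rose in level from 47.2 ± 12.4 to 76.7 ± 14.5 CPM (SD, n = 3 each), a log2 fold change of 0.72 (SE 0.13, adjusted p = 0.00167). Mxd4 and Mxi1, which encode MAX partners that oppose MYC, fell by 0.83 (SE 0.15, adjusted p = 0.00143) and 0.62 (SE 0.12, adjusted p = 0.00177) on the log2 scale. Mxd1, of the same class, had a log2 fold change of -0.67 (adjusted p = 0.0103) and Mnt, another MAX partner, one of -0.35 (adjusted p = 0.096). In cultures 2 and 3 alone, Myc did not pass (log2 fold change 0.57, adjusted p = 0.014) and Mxd1 did (adjusted p = 4.25e-05), as it also did with RLE scaling (0.0092), with no low-count filter (0.000162) and with at least 10 counts in every sample (0.00835). Mycn did not pass without culture 2 (adjusted p = 0.0104), nor Mxi1 without culture 3 (adjusted p = 0.0312).

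Of 12 myelin genes, 9 fell and none rose by edgeR's quasi-likelihood test (11 at an unadjusted p under 0.05, 10 passed in DESeq2), with a median log2 fold change of -1.12, so that Ndrg1 and Ndrg2 lay close to the middle of this list. Several of these genes were chosen in the study on these same samples, and the count is not independent evidence of its direction. The study also listed Ndrg1 itself among its down-regulated myelination genes. The median and the place of Ndrg1 and Ndrg2 beside it are therefore descriptions only. Pmp22, a protein of compact myelin, had a log2 fold change of -1.57, and Egr2, the master transcription factor of myelination, had -1.71, similar to Fa2h and Mal with -1.85 and -1.72. Cldn19, Mag, Mbp and Prx lay between -1.19 and -1.01, next to Ndrg1 and Ndrg2. Among the 3 that did not pass, Cnp and Gjb1 had log2 fold changes of -0.32 and -0.03. Over the lists together, 6 genes rose and 12 fell, and 9 of these 12 were the myelin genes above. Among all genes tested, 6.31% passed as higher and 5.51% as lower. In cultures 2 and 3 alone 3 list genes rose and 14 fell, 8 of the latter in the myelin list.

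**Figure D4:**
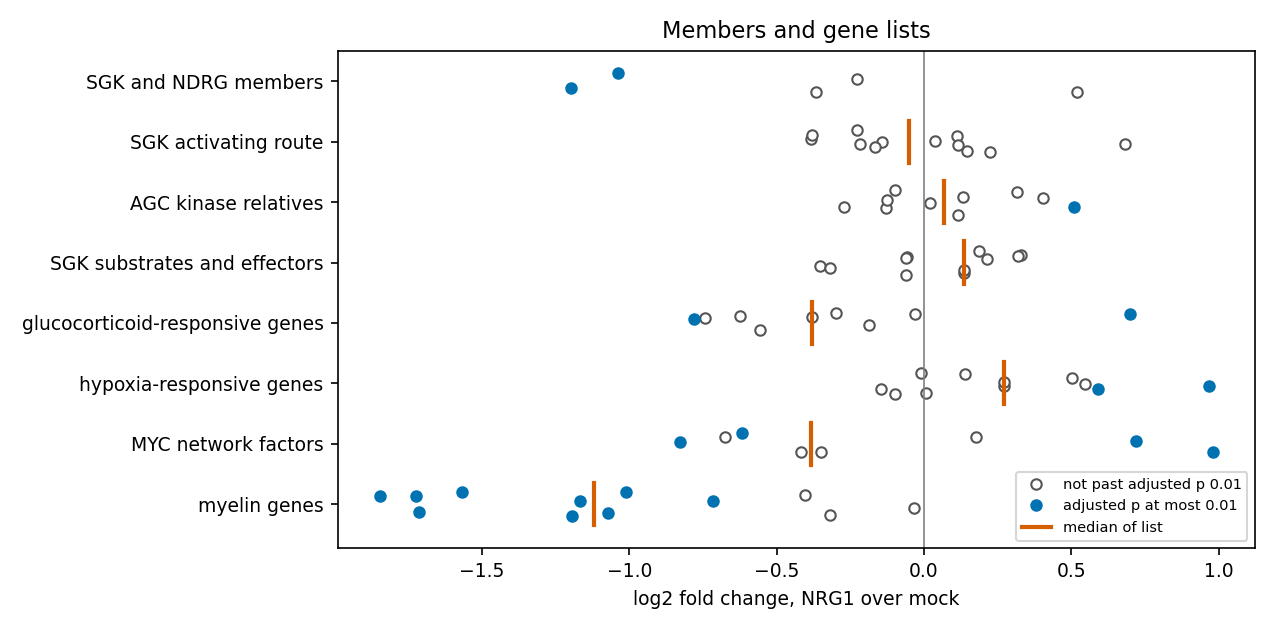
Log2 fold change of NRG1 over mock for each tested member and each tested gene of the 7 lists, with filled points for an adjusted p of at most 0.01 and orange bars for the median of a list. The 2 filled members, Ndrg1 and Ndrg2, lie near the myelin median of -1.12, and Sgk1 at 0.52 is an open point.

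The genes whose levels over the 6 libraries were most like those of the 2 members that passed were found by the Pearson correlation of log2 CPM among all genes tested. For Ndrg1 they were P2rx4, an ATP-gated ion channel (r = 0.994), Ip6k2, an inositol hexakisphosphate kinase (r = 0.994), and Dnm3, a dynamin (r = 0.993). For Ndrg2 they were Gfra3, a co-receptor for the neurotrophic factor artemin (r = 0.995), Bbs10, a chaperonin-like protein (r = 0.995), and Tmem184c (r = 0.994). The 6 points share culture and treatment, and the genes are the highest among all those tested, so these values are descriptions only. The 3 genes most like Ndrg1 had log2 fold changes of -0.77, -0.48 and -2.20 and all passed, Ip6k2 only narrowly (adjusted p = 0.00901) and in no fit without 1 culture, whereas of those most like Ndrg2 only Gfra3 passed (-1.25, adjusted p = 0.000563), though not without culture 2 (-1.01, adjusted p = 0.0123), and Bbs10 (-0.55, adjusted p = 0.0541) and Tmem184c (-0.16, adjusted p = 0.339) did not.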

How the data were processed

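Poly(A) RNA of 3 mock and 3 NRG1 samples, paired by culture, was sequenced on an Illumina platform. According to the methods and the submitters' processing notes, reads were mapped to rat rn5 with TopHat 2.0.10 and counted with htseq against RefSeq genes. The authors deposited raw counts per gene symbol. Summary lines, which held 50.1% to 53.0% of alignments, were left out of library sizes. Strand use in counting is not given in the sources used here.

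Counts of all genes were filtered with filterByExpr (minimum count 10), leaving 9740 of 17327, scaled by TMM and tested with the quasi-likelihood test of edgeR 4.0.16 in R 4.3.3, with the culture as a blocking factor, since the study used paired samples. Benjamini-Hochberg adjustment was over all 9740 genes. A gene passed with an adjusted p up to 0.01, and the second threshold was an absolute log2 fold change over 1. The SE is the log2 fold change over the root of F. Log2 ratios of single cultures come from TMM-scaled log2 CPM with a prior count of 2. With the block, p-values weigh the NRG1 to mock difference against a spread over these cultures that edgeR moderates with information from all genes. The SE, interval and p-value of a gene therefore do not rest on the spread of its own log2 ratios alone. Differences in level between cultures are taken up by the block. Deviations from group means correlated with r of 0.906, 0.673 and 0.810 for the same numbers, and the labels name 3 independent experiments. For unlike numbers r was 0.514 and 0.512 between cultures 2 and 3, not far under the 0.673 of culture 2. Between culture 1 and the others it was from -0.797 to -0.706, so these values mostly set culture 1 apart. Intervals of depth cover counting error only.

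Alternatives were no replicate block, DESeq2 1.42.0 with unshrunken and shrunken fold changes, RLE, 2 other filters, an adjusted p of 0.05 and each replicate left out. The scripts were tested on simulated counts. The members and lists were chosen with earlier results of these data known. Named genes are the members, the list genes that passed, up to 4 others per list with the highest mean CPM, and the 3 genes most like each member that passed. Some genes that this rule names are not reported here, though they are included in the counts and medians of their lists. Counts per Sox10 count and the ratio of Sgk1 to Ndrg1 were added after the data had been seen. Promoter windows come from a RefSeq table of GRCr8, and no coordinates were taken from rn5.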

Additional observations from a re-analysis of the deposited data

How the results depend on the processing

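The pairing of samples decided the calls. With no replicate block, edgeR called 0 genes as higher and 0 as lower (smallest adjusted p 0.139, with 1334 genes at an unadjusted p under 0.05), and so 0 members and 0 list genes in either direction and 0 members past both thresholds, although 3 members had an unadjusted p under 0.05. In that fit Ndrg1 and Ndrg2 had log2 fold changes of -1.21 (adjusted p = 0.252) and -1.06 (adjusted p = 0.616), and the common biological coefficient of variation was 0.374 against 0.119 with the block. For the ratios of Ndrg1 to Ndrg2, Ndrg3 and Ndrg4 and of Sgk1 to Ndrg1, the exact unpaired permutation test with no replicate block gave p = 0.7, 0.1, 0.3 and 0.1, where 0.1 is the smallest that 3 against 3 allows. Sgk1 passed, making 1 member higher in NRG1, in DESeq2 with unshrunken (adjusted p = 0.00895) and shrunken fold changes (0.00888), with RLE (0.00815), with no low-count filter (0.00192), with at least 10 counts in every sample (0.00972) and at a threshold of 0.05. Its log2 fold change stayed between 0.35 and 0.62 over all alternatives with a fit. DESeq2 with shrunken fold changes left 1 member past both thresholds. Genes called lower numbered 857 with no low-count filter, and an adjusted p of at most 0.05 gave 1124 higher and 1136 lower.

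Leaving out 1 culture in turn gave from 0 to 1 members higher and 2 members lower in each case, from 1 to 2 members past both thresholds, from 3 to 4 list genes higher and from 10 to 14 lower. Over all genes it gave from 408 to 590 higher and from 253 to 601 lower, with the lowest numbers without culture 3. Of the 50 fold changes of members under these alternatives, 40 kept direction and side of the threshold, 8 moved past it, 2 lost it, both without the block, and none changed direction. Direction changed only in genes near 0 that passed in no case. These were Gjb1 in DESeq2 with unshrunken fold changes (0.00405) and, over fits without 1 culture, Gjb1 (-0.176 to 0.189), Dusp1 (-0.0730 to 0.0406), Nedd4 (-0.107 to 0.0106) and Hif1a (-0.188 to 0.0673). The cause of these shifts was not tested. Depth limits Sgk2, for which a level under 0.194 CPM cannot be seen, and gene lengths would be needed to compare levels between members.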
